A study of Mus musculus with 18 samples.

Results

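The Hox clusters were followed here in a chromatin immunoprecipitation sequencing data set from mouse ventricles, as all peaks whose annotated gene is a member of Hoxa, Hoxb, Hoxc or Hoxd together with every other peak between the first and the last annotated Hox gene of each cluster. The rule found 59 of the 101256 peaks in the table. 48 of them were annotated to the promoter of a Hox gene, 8 to the promoter of another gene inside a cluster and 3 to no promoter. Hoxa held 19 peaks (on chromosome 6), Hoxb 22 (GRCm39 chr11:96085142-96244838), Hoxc 4 (chr15:102875231-102945278) and Hoxd 14 (chr2:74505357-74578786), and 3 of the Hox-annotated peaks began just outside these gene spans. 26 of the 39 Hox genes in the mouse annotation had at least 1 peak, and the 13 genes without an annotated peak were Hoxa6, Hoxa9, Hoxb1, Hoxb3, Hoxb9, Hoxc5, Hoxc9, Hoxc11, Hoxc12, Hoxc13, Hoxd1, Hoxd11 and Hoxd13. The annotation assigned a peak to a gene start within 5000 nt, and not always to the gene it lies closest to.

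3 genotypes were compared. Ventricles that the labels call WT served as the reference, and the methods name Mettl3lox/lox animals as controls of the Mettl3 line. Trdn-as KO mice carried, in both alleles, a polyadenylation site placed by Cas9 into the first exon of Trdn-as, the antisense transcript of the triadin gene, in ES-cell-derived animals backcrossed to C57BL/6. Mettl3 KO mice (Mettl3lox/lox:alphaMHC-MerCreMerpos) lost the RNA methyltransferase Mettl3 after tamoxifen in cardiomyocytes only, the cells in which the alphaMHC promoter drives Cre, so that all other cells of the ventricle still carried the gene. Each chromatin preparation came from 2 pooled adult hearts. Each genotype had 2 libraries with an antibody against the B1 subunit of RNA polymerase II (Pol II), 2 with an antibody against CTCF and 1 with IgG, and nothing in the labels says whether the 2 libraries came from separate chromatin, so the spread between them may be technical.

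Hox genes encode homeodomain transcription factors that give cells their position along the body axis in the embryo. They lie in 4 clusters in which genes are numbered by paralogue group, from group 1 at the 3' end, active early and anteriorly, to group 13 at the 5' end, active late and posteriorly, and many adult cells keep part of this pattern. Pol II at a gene start reports polymerase that is initiating or paused there. CTCF is a zinc-finger protein that holds cohesin-driven chromatin loops, and its sites inside Hox clusters are known as borders between active and Polycomb-silenced stretches.

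Pol II libraries held between 1.99e+06 and 4.95e+06 reads in peaks and IgG libraries between 273493 and 813075, as recovered from the step of the deposited values. In 5 of the 6 Pol II libraries 35.5% to 42.6% of the uniquely mapped reads lay in peaks, and in Trdn-as KO replicate 2 it was 18.6%, which sets this library apart. The 6 peaks on the Y chromosome summed to Pol II values of 279 and 326 for WT, 223 and 239 for Mettl3 KO, and they were 0 in both libraries of Trdn-as KO. Sex is not given per library, and its part in the differences of Trdn-as KO was not tested. Cardiomyocyte markers were high in all libraries, with a median Pol II value of 2207 over 8 promoters, and the 5 neuron and glia markers with a promoter peak had a median of 3.33. The sum over the 8 fibroblast markers was 928 and 991 for WT, 1400 and 990 for Trdn-as KO, 1944 and 1942 for Mettl3 KO. In bulk ventricle, fewer cells of a type and less polymerase per cell cannot be told apart.

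Which DNA do these peaks cover? RefSeq promoter windows (GRCm38.p6, from 250 nt before to 50 nt after the start) were at hand for 16 of the 26 genes, in 17 windows. 3 are printed because they stand for the 3 kinds of promoter met below: Hoxa5, whose window lies wholly under a peak with both Pol II and CTCF; Hoxd10, whose window lies wholly under a peak low in Pol II; and Hoxb4, whose window lies just upstream of the Hox gene peak with the highest Pol II per kb. CG dinucleotides are in capitals.
Hoxa5 (chr6:52204538-52204837, minus strand): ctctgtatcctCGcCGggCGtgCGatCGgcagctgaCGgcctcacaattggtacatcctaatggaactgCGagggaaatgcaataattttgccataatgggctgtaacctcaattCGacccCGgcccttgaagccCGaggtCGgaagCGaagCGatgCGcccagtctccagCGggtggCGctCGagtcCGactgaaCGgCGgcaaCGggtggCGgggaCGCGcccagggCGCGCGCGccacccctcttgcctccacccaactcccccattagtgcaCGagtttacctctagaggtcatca
Hoxd10 (chr2:74691641-74691940, plus strand): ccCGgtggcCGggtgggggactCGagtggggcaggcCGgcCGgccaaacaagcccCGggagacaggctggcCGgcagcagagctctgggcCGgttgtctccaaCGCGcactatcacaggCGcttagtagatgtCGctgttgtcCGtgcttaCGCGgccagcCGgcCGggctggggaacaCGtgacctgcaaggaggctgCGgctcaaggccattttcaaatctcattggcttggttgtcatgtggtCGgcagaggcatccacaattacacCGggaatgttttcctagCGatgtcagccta
Hoxb4 (chr11:96318017-96318316, plus strand): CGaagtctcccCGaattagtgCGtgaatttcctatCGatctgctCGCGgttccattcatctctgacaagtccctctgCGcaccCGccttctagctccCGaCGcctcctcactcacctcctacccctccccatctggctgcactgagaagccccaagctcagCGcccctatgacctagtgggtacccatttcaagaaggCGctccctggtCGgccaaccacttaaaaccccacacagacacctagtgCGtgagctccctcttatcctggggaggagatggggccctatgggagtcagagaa
They hold 29, 22 and 14 CG dinucleotides, respectively. The median of the 17 Hox windows was 14, against 7 over 32851 windows of the same length, and the Hoxd10 window, with little Pol II, was richer in CG than that of Hoxb4. The letters CCANNAGNNGGC, the core of the CTCF motif, searched on both strands, occurred in 2.43% of all windows and in 0 of the 17 Hox windows. The letters TGATNNAT, a site bound jointly by Hox and Pbx proteins, occurred in 8.85% of all windows and in 2 Hox windows, Hoxa2 and Hoxb8. The windows are short and the CTCF peaks mostly lie elsewhere, so that no match speaks only of these letters in these windows.

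Pol II at the Hox clusters was low, but not uniformly so. The mean Pol II value over the 6 libraries was at least 20 in 10 of the 59 peaks (16.9%), compared with 28.2% of all peaks and 52.6% of promoter peaks of coding genes. The median over the 48 Hox promoter peaks was 7, against 24.2 over coding promoters. In value per 1000000 uniquely mapped reads (RPM), Pol II exceeded the IgG library of the same genotype in both libraries at 33 of the 59 peaks for WT (55.9%, against 65.7% of all peaks), at 30 for Trdn-as KO (50.8%, against 56.9%) and at 34 for Mettl3 KO (57.6%, against 60.3%). It did so in all 3 genotypes at 18 peaks (30.5%, against 39.8% of all peaks and 64.6% of coding promoters), and at 10 on the deposited scale.

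Summed over the clusters, the Pol II level followed the position in the cluster. To compare peaks of different length, values were divided by peak length. Peaks without a Hox annotation, and those annotated to Hoxa3 between Hoxa5 and Hoxa7, were placed in the stretch of the nearest other Hox peak. Summed over the 25 peaks in the stretch of paralogue groups 1 to 4, Pol II was 41.9 per kb, over the 23 peaks in groups 5 to 8 it was 16.6 per kb, and over the 11 peaks in groups 9 to 13 it was 8.24 per kb. IgG on the deposited scale was 22.9, 24.3 and 21 per kb over the same stretches and showed no such order. Pol II of the middle and posterior stretches lay below IgG on this scale. The median Pol II value of a peak, not divided by length, was 8.17, 6.33 and 3.33, so the typical peaks differed less than the sums. The anterior stretch held 6 of the 10 peaks with a mean Pol II of at least 20, the middle stretch 4 and the posterior stretch 0. This order came from Hoxa and Hoxb. In Hoxc groups 1 to 4 held 24.4% and 9.80% of the Pol II value of the cluster in the WT libraries and in Hoxd 25% and 23.4%, with the highest peaks at Hoxc6 and Hoxd8.

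**Figure D1:**
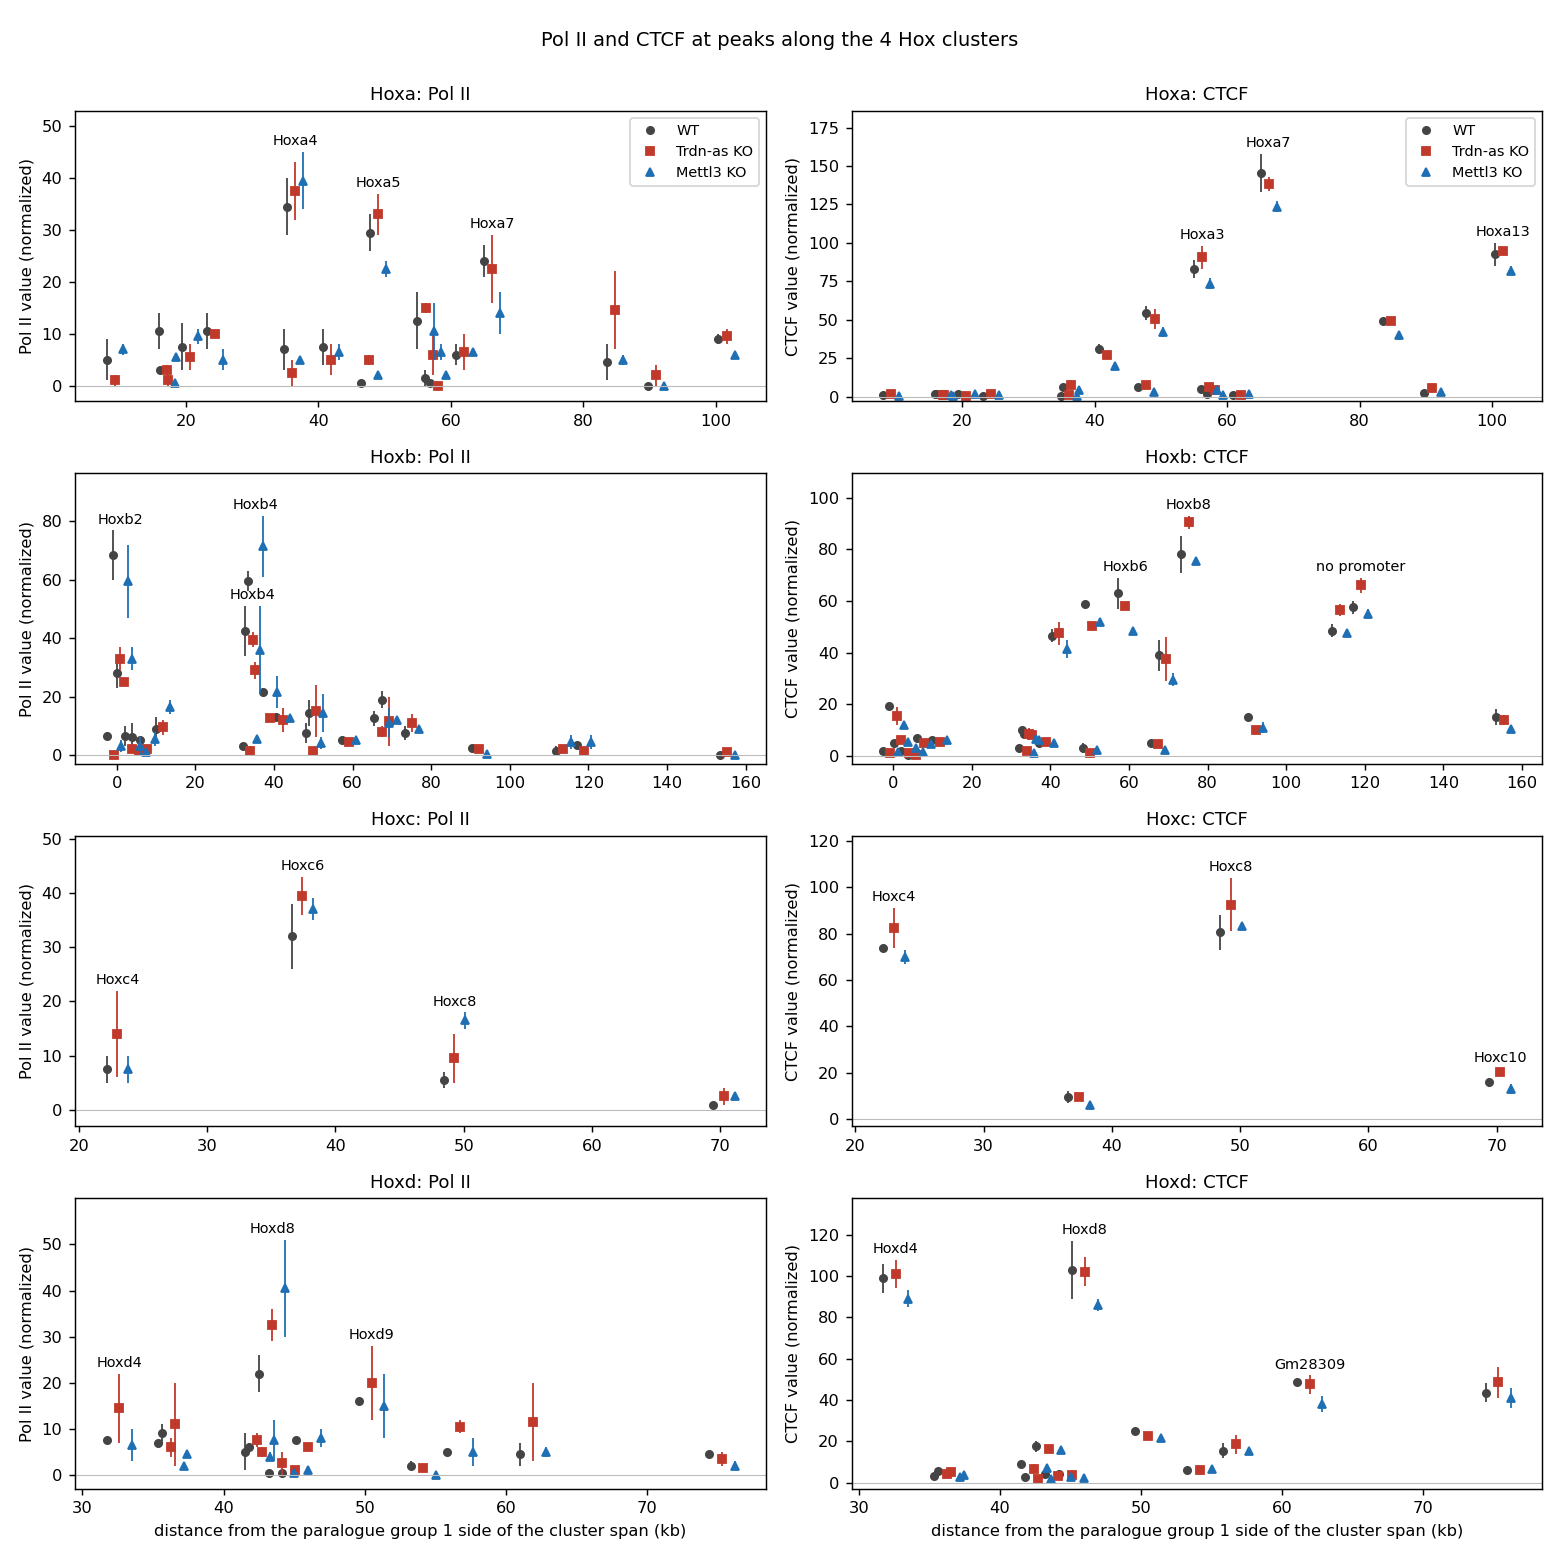
Pol II (left) and CTCF (right) at peaks along the 4 Hox clusters, plotted against the distance in kb from the paralogue group 1 side of the cluster span. Points are the mean of 2 libraries per genotype, slightly offset sideways, vertical lines join the 2 libraries, and the 3 highest drawn peaks of each panel are named by their annotated gene. Pol II is high at Hoxb2, Hoxb4 and Hoxa4 towards the left side, while CTCF peaks at Hoxa7, Hoxb8, Hoxc8 and Hoxd8 lie further in, and the CTCF peaks annotated to Hoxc4 and Hoxd4 lie at the left end of the peaks of their clusters.

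Each Hox gene was then represented by its promoter peak with the highest mean Pol II. Per kb and averaged over the 6 libraries, Hoxb4 came first with 126, and among the others were Hoxa4 with 116, Hoxc6 with 68.2, Hoxd8 with 54.8 and Hoxb2 with 47.8. In WT the per-kb level was 140 ± 11.7 at Hoxb4, 107 ± 24.2 at Hoxa4, 61.1 ± 10.7 at Hoxb2 and 60.4 ± 16.0 at Hoxc6 (SD, n = 2). The libraries of Hoxb2 and Hoxc6 overlapped, so these neighbours in the order were not separated beyond their spread. In RPM the peaks of 9 of the 26 genes exceeded IgG in all genotypes, among them Hoxa4, Hoxa5, Hoxb2, Hoxb4, Hoxb7, Hoxc6, Hoxd8 and Hoxd9. On the deposited scale 6 did, without Hoxa5, Hoxb7 and Hoxd9. At the other end were the posterior genes Hoxa11, with 3.12 per kb, and Hoxb13, with 1.01 per kb, which had a Pol II value of 0 in every WT and Mettl3 KO library. In groups 9 to 13, Hoxd9 had 23.8 per kb and was the only gene whose peak exceeded IgG throughout in RPM, while its deposited WT values of 15 and 17 lay below that of IgG, 18.

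In Hoxa, Hoxa4 (chr6:52168868-52169188) had 29 and 40 for WT, 32 and 43 for Trdn-as KO, 45 and 34 for Mettl3 KO, with all genotypes overlapping on the deposited scale. In RPM its Trdn-as KO libraries, with 2.31 and 1.98, lay below those of WT, with 2.45 and 3.62, and of Mettl3 KO, with 3.42 and 2.82. Hoxa5 (chr6:52181170-52182003), a gene of lung and axial development, had 33 and 26 for WT, 37 and 29 for Trdn-as KO, 21 and 24 for Mettl3 KO, with Mettl3 KO below all the other libraries on the deposited scale. In RPM its Mettl3 KO and Trdn-as KO libraries overlapped, with 1.60 and 1.99 against 2.67 and 1.33.

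In Hoxb the highest Pol II lay inside 2 anterior genes. At Hoxb2 (chr11:96243376-96244497), which acts in hindbrain segment identity, Pol II was 60 and 77 for WT, 29 and 37 for Trdn-as KO, 47 and 72 for Mettl3 KO. At Hoxb4 (chr11:96209399-96209822), known for promoting the expansion of blood stem cells when overexpressed, it was 63 and 56 for WT, 32 and 26 for Trdn-as KO, 61 and 82 for Mettl3 KO. The peak lies inside the gene, with its centre 518 nt from the start whose upstream window is printed above. At both peaks the Trdn-as KO libraries were below all WT and Mettl3 KO libraries. A smaller Hoxb4 peak, at chr11:96205651-96206044, shared this, with 20 and 23 for WT, 13 and 12 for Trdn-as KO, 27 and 16 for Mettl3 KO. On the deposited scale the peaks next to the 2 high ones did not. The next Hoxb2 peak, at chr11:96242647-96243084, had 23 and 33 for WT, 26 and 24 for Trdn-as KO, 29 and 37 for Mettl3 KO. In RPM this Hoxb2 peak did share it, with 1.88 and 1.10 for Trdn-as KO against 1.94 and 2.99 for WT and 2.20 and 3.07 for Mettl3 KO. The next Hoxb4 peak, at chr11:96209900-96210592, had 34 and 51 for WT, 42 and 37 for Trdn-as KO, 51 and 21 for Mettl3 KO, and its libraries overlapped in RPM too.

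Hoxc and Hoxd carried less Pol II, with sums over their peaks in WT of 46 ± 7.07 and 97 ± 4.24 (SD, n = 2), against 256.5 ± 29.0 in Hoxa and 342.5 ± 53.0 in Hoxb. The clusters have different numbers of peaks, and divided by the length of all peaks of a cluster the WT libraries had 13.6 and 17.0 per kb in Hoxc, 14.1 and 13.2 in Hoxd, 25.5 and 29.9 in Hoxa and 25.5 and 31.8 in Hoxb. Hoxc and Hoxd were thus not separated from each other per kb. Most of the Hoxc signal was at Hoxc6 (chr15:102907589-102908118), with 26 and 38 for WT, 36 and 43 for Trdn-as KO, 39 and 35 for Mettl3 KO. Hoxc8 (chr15:102895504-102896492), which helps to specify brachial motor neurons, had 4 and 7 for WT, 5 and 14 for Trdn-as KO, 15 and 18 for Mettl3 KO. In WT this peak lay below IgG, which was 51 on the deposited scale, and in RPM it had 0.338 and 0.634 against 1.21 of IgG. In Hoxd, Hoxd8 (chr2:74535052-74535629) had 26 and 18 for WT, 36 and 29 for Trdn-as KO, 30 and 51 for Mettl3 KO, with WT below all the other libraries on the deposited scale. In RPM its WT and Trdn-as KO libraries overlapped, with 2.20 and 1.63 against 2.60 and 1.33. Hoxd9 (chr2:74527933-74528647) had 15 and 17 for WT, 28 and 12 for Trdn-as KO, 8 and 22 for Mettl3 KO and overlapped throughout.

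**Figure D2:**
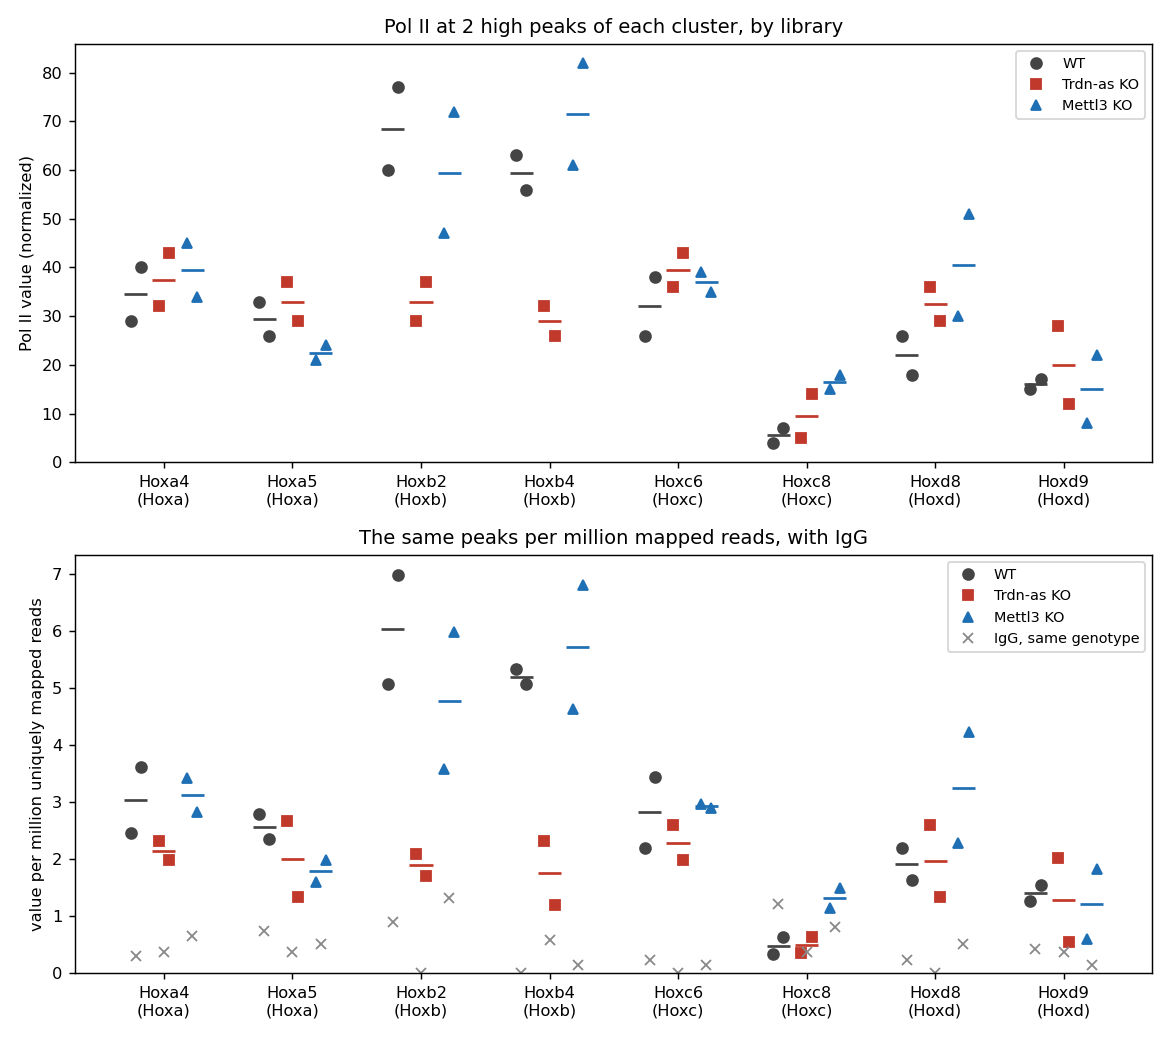
Pol II at 2 peaks of high mean Pol II in each cluster, 1 point per library and a bar at the mean of the 2 libraries of a genotype. The upper panel shows the deposited normalized values, in which Trdn-as KO lies below WT and Mettl3 KO at Hoxb2 and Hoxb4, and the lower panel the same peaks in RPM with the IgG library of each genotype as crosses.

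CTCF followed another order. Its mean value was at least 40 in 17 of the 59 peaks (28.8%, against 24.1% of all peaks), and only 2 peaks, the starts of Hoxa5 and Hoxa7, passed both this level and the Pol II level of 20. The Hoxa7 peak did so with Pol II values below IgG, which was 43 for WT, 39 for Trdn-as KO and 83 for Mettl3 KO on the deposited scale, and in RPM it was above IgG in WT and Trdn-as KO but not in Mettl3 KO. In all 4 clusters the peak with the most Pol II was another than the peak with the most CTCF, and this held per kb and in each of the 6 pairs of equally numbered libraries. CTCF was 33.4 per kb in paralogue groups 1 to 4, 56.2 in groups 5 to 8 and 51.9 in groups 9 to 13. Across the 59 peaks the Spearman correlation between Pol II and CTCF was -0.57 per kb and 0.37 on undivided values. Peak length itself correlated with CTCF at 0.95, and all points share the same libraries. The peaks are a union over both antibodies, so that a peak low in Pol II could enter through CTCF and the reverse. No conclusion is drawn from these correlations.

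The strongest CTCF peak of the clusters covered the start of Hoxa7 (chr6:52198138-52199550), a middle group gene of the thoracic region. CTCF there was 158 and 133 for WT, 134 and 143 for Trdn-as KO, 120 and 127 for Mettl3 KO. Hoxa13 (chr6:52233558-52234867), a gene of the distal limb and the genital tract, had 100 and 85 for WT, 93 and 97 for Trdn-as KO, 85 and 79 for Mettl3 KO. In Mettl3 KO, CTCF lay below the WT libraries at Hoxa7 and touched the lower one at Hoxa13.

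In Hoxb, the peak annotated to Hoxb8 (chr11:96169135-96170234) had CTCF values of 85 and 71 for WT, 88 and 93 for Trdn-as KO, 76 and 75 for Mettl3 KO. A peak without a promoter, between Hoxb8 and Hoxb13 (chr11:96125513-96126322), had 60 and 55 for WT, 69 and 63 for Trdn-as KO, 57 and 53 for Mettl3 KO. At both, the Trdn-as KO libraries were the highest and those of WT and Mettl3 KO overlapped.

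In Hoxc, CTCF at the peak annotated to Hoxc8 was 88 and 73 for WT, 81 and 104 for Trdn-as KO, 84 and 83 for Mettl3 KO, and at that annotated to Hoxc4 (chr15:102921719-102922839) it was 75 and 73 for WT, 91 and 74 for Trdn-as KO, 73 and 67 for Mettl3 KO. In Hoxd, 2 peaks of similar height stood on either side of the Hoxd8 peak with the most Pol II, which lies inside the gene and does not cover its annotated start. The peak annotated to Hoxd8 (chr2:74532176-74533364) had 117 and 89 for WT, 95 and 109 for Trdn-as KO, 83 and 89 for Mettl3 KO. The peak annotated to Hoxd4 (chr2:74545649-74546703) had 106 and 92 for WT, 108 and 94 for Trdn-as KO, 93 and 85 for Mettl3 KO. No genotype was separated from the other 2 at these Hoxc and Hoxd peaks.

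**Figure D3:**
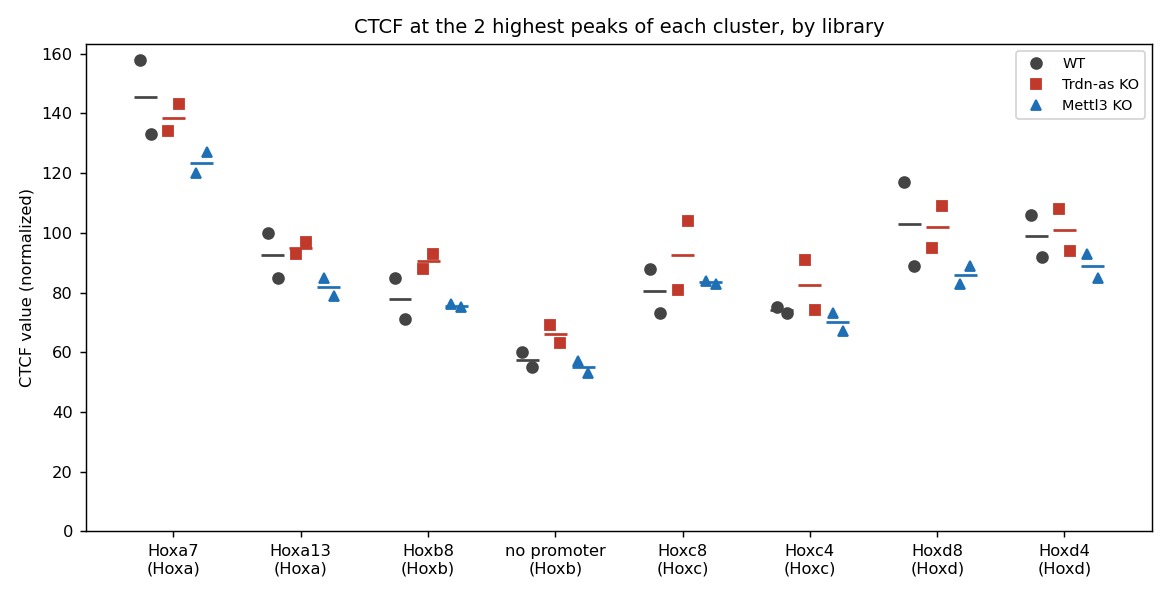
CTCF at the 2 peaks with the highest mean CTCF in each cluster, on the deposited normalized scale, with 1 point per library and a bar at the mean of the 2 libraries of a genotype. The genotypes lie close together at every peak, and at Hoxa7 both Mettl3 KO libraries, with 120 and 127, lie below both WT libraries.

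As deposited, less of the Pol II summed over all clusters lay in the anterior stretch in the Trdn-as KO libraries, whereas CTCF was divided alike in all genotypes. Groups 1 to 4 held 62.2% and 64.0% of the summed Pol II value of all Hox peaks in the WT libraries, 59.8% and 63.0% for Mettl3 KO, but 52.1% and 51.5% for Trdn-as KO. The 2 Trdn-as KO libraries were below the other 4, the library with few reads in peaks as much as its partner. For CTCF the same share lay between 22.1% and 23.5% in all 6 libraries. Within Hoxa the share was 65.3% and 66.1% for WT, and 55.2% and 53.7% for Trdn-as KO. Within Hoxb, whose Trdn-as KO sum was the lowest of the genotypes, it was 77.0% and 79.7% for WT, and 81.5% and 68.3% for Trdn-as KO. Within Hoxc the libraries overlapped, with 24.4% and 9.80% for WT and 12.5% and 26.5% for Trdn-as KO, and so they did within Hoxd, with 25% and 23.4% against 13.6% and 32.6%. Of the clusters, only Hoxa therefore held both Trdn-as KO libraries below both of WT. The IgG libraries had 32.6% of their value in groups 1 to 4 for WT, 30.5% for Trdn-as KO and 32.3% for Mettl3 KO, and Trdn-as KO had the least Pol II over the Hox peaks, with 44.1 and 33.9 RPM against 17.5 of IgG, compared with 57.6 and 72.6 against 21.3 for WT. After subtraction of IgG in RPM, an alternative chosen after seeing the data, the share was 79.5% and 77.0% for WT, 66.4% and 73.9% for Trdn-as KO, 73.7% and 77.9% for Mettl3 KO, so that Trdn-as KO and Mettl3 KO overlapped. The shares are given as a description without a test.

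**Figure D4:**
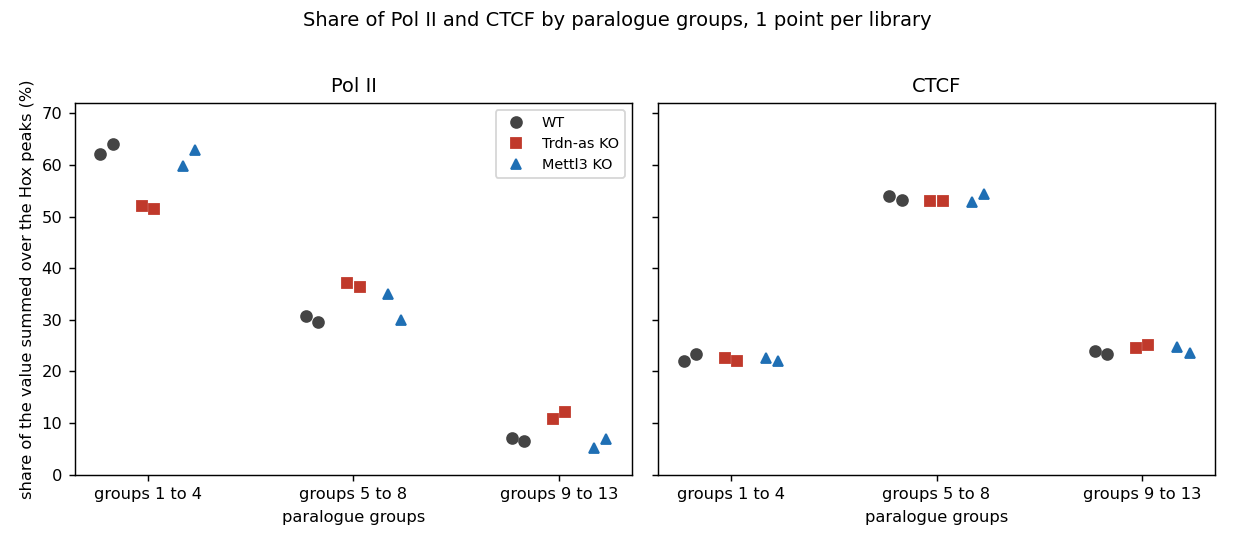
Share in percent of the Pol II (left) and CTCF (right) value summed over the 59 Hox peaks that lies in paralogue groups 1 to 4, 5 to 8 and 9 to 13, with 1 point per library. The Trdn-as KO libraries sit at 52.1% and 51.5% of Pol II in groups 1 to 4, below the other 4 libraries, while the CTCF points of all genotypes coincide closely.

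Did Pol II at single Hox peaks differ in Trdn-as KO hearts? Of the 59 peaks, 26 reached a Pol II value of 10 in 2 or more libraries and were tested together with 52655 peaks in all. None of the 26 was called in Trdn-as KO against WT by limma at an adjusted p below 0.05, compared with 0.304% of all peaks, and 2 had an unadjusted p below 0.05, compared with 7.7% of all. The smallest p-values were those of Hoxb2, with a log2 difference of -1.03 (SE 0.32, limma adjusted p = 0.23), Hoxb4, with -1.02 (SE 0.32, adjusted p = 0.24), and Hoxb7 (chr11:96174933-96175969), with -1.11 (SE 0.60, adjusted p = 0.70). Hoxb7 had 22 and 16 for WT, 3 and 20 for Trdn-as KO, 13 and 11 for Mettl3 KO, so that its difference came from 1 library and turned to 0.09 without Trdn-as KO replicate 1. Both Trdn-as KO libraries lay below both WT libraries at 4 of the 26 peaks (background 19.1%) and above at 1 (background 12.9%). Summed over the Hoxb peaks, Pol II was 305 and 380 for WT against 205 and 246 for Trdn-as KO. On the deposited scale the libraries of both genotypes overlapped in Hoxa, with 236 and 277 for WT against 232 and 268 for Trdn-as KO, and Trdn-as KO was not lower in the other clusters, with 41 and 51 against 48 and 83 in Hoxc, and 100 and 94 against 125 and 141 in Hoxd. This contrast between the clusters depended on the scale. In RPM both Trdn-as KO libraries lay below both WT libraries in Hoxa too, with 16.8 and 12.3 against 19.9 and 25.1, as in Hoxb, with 14.8 and 11.3 against 25.8 and 34.4, and the libraries overlapped in Hoxc and Hoxd.

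Between the 2 mutants, 1 of the 26 tested peaks was called, with 1.5% of all peaks called and 1.15% called as lower in Trdn-as KO. 2 had an unadjusted p below 0.05 (background 17.9%). Pol II at Hoxb4 (chr11:96209399-96209822) was lower in Trdn-as KO, with a log2 difference of -1.26 (SE 0.32, limma adjusted p = 0.023) and every Trdn-as KO library below every Mettl3 KO library. The call was lost when any single library other than Trdn-as KO replicate 1 was left out, among them Trdn-as KO replicate 2, the library with few reads in peaks (-1.12, limma adjusted p = 0.18), and when libraries were scaled by their uniquely mapped reads, although the difference was then -1.71 (limma adjusted p = 0.11). That scaling moved the median of all peaks in this comparison from -0.16 to -0.60, a shift of -0.44. In RPM, Hoxb4 had 5.32 and 5.07 for WT, 2.31 and 1.20 for Trdn-as KO, 4.63 and 6.80 for Mettl3 KO, against IgG values of 0, 0.578 and 0.144. Trdn-as KO libraries lay below those of Mettl3 KO at 7 of the 26 peaks (background 29.9%) and above them at 3 (background 13.9%), shares of 26.9% and 11.5% that were near these backgrounds. Cell type markers moved in the same comparison. 5 of the 8 fibroblast markers were called lower in Trdn-as KO, with a median log2 difference of -0.83 over the 8 against -0.16 for all tested peaks, while of the 8 cardiomyocyte markers 1 was called lower and their median was -0.05. The one called was Myh6, the alpha myosin heavy chain (-0.39, SE 0.08, limma adjusted p = 0.0041), which was also called lower against WT (-0.35, adjusted p = 0.029). These calls were also sensitive to the processing: of the 14 alternatives described in the closing section, Col3a1 was below 0.05 in 5 and Myh6 in 4, and the difference of Myh6 between the mutants lay between -0.86 and 0. The Cre transgene of the Mettl3 KO line carries the alphaMHC promoter, that of Myh6, and its part in the Myh6 value was not tested. The part of these marker genes in the Hoxb4 value was not tested.

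In Mettl3 KO against WT, limma called none of the 26 tested peaks for Pol II, with 1.19% of all peaks called, and 2 had an unadjusted p below 0.05 (background 15.5%). The smallest p-values belonged to Hoxd8, whose log2 difference was 0.83 (SE 0.38, limma adjusted p = 0.28), Hoxc8 with 1.46 (SE 0.69, adjusted p = 0.29) and Hoxa7 with -0.78 (SE 0.46, adjusted p = 0.41). Pol II at the Hoxa7 peak was 27 and 21 for WT, 16 and 29 for Trdn-as KO, 18 and 10 for Mettl3 KO. The Hoxc8 difference is taken against WT values that lay below IgG. The median log2 difference of the 26 was -0.06, against 0.08 for all tested peaks. Both Mettl3 KO values were under the WT values at 5 of the 26 peaks (background 19.5%) and above them at 3 (background 31.2%). The fibroblast markers moved in the same comparison: 5 of 8 rose in Mettl3 KO, for example Col3a1, a fibrillar collagen, with 78 and 96 for WT against 230 and 246 for Mettl3 KO (log2 difference 1.45, SE 0.23, limma adjusted p = 1.06e-04). Each of the 5 calls held in 7 of 14 alternatives and was lost, among others, without either WT or either Mettl3 KO library. Their part in the Hox values was not tested.

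For CTCF, 29 of the 59 peaks were tested among 60649. In Mettl3 KO against WT limma called 0 of the 29, with 0.185% of all peaks called, and 6 had an unadjusted p below 0.05 (background 15.7%). The direction was nevertheless shared. CTCF was lower in Mettl3 KO at 27 of the 29 peaks, with a median log2 difference of -0.23, while 60.5% of all tested peaks were lower and their median was -0.06. In Mettl3 KO, both values were under those of WT at 14 of the 29 (48.3%, background 27.7%) and above at 0 (background 15.8%). The summed CTCF value of all Hox peaks was 1564 ± 127 for WT, 1590 ± 33.9 for Trdn-as KO and 1349 ± 19.8 for Mettl3 KO (SD, n = 2). The peaks of a cluster share their libraries and are no independent measurements. When every library was scaled to the same total, 25 of the 29 were lower, with a median of -0.18 against -0.01 for all peaks, and after quantile normalization 24 were. The 7 endothelial markers with a promoter peak had a median CTCF difference of -0.40 in this comparison, with 0 called, and the 6 tested fibroblast markers one of 0.24. The 8 cardiomyocyte markers had a median of 0.02, and 1 was called, Myh6, which was higher in Mettl3 KO (0.67, SE 0.06, limma adjusted p = 6.85e-05). The alphaMHC promoter of the Cre transgene in this line is that of Myh6, and the part of transgene reads in this value was not tested. The part of any of these markers in the Hox values was not tested.

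The 3 smallest p-values of this comparison were at a peak without a promoter between Hoxa4 and Hoxa5 (chr6:52174202-52174652), at Hoxb2 and at Hoxb6. The first had CTCF values of 34 and 28 for WT, 25 and 29 for Trdn-as KO, 19 and 21 for Mettl3 KO, a log2 difference of -0.60 in Mettl3 KO (SE 0.17, limma adjusted p = 0.12). The Hoxb2 peak was the same that carried the highest mean Pol II value of its cluster. CTCF there was 19 and 20 for WT, 12 and 19 for Trdn-as KO, 13 and 11 for Mettl3 KO, a difference of -0.66 (SE 0.23, limma adjusted p = 0.19). On the deposited scale these values lay below IgG in WT and Mettl3 KO, where it was 38 and 46, and above it in Trdn-as KO, where it was 0. Hoxb6 (chr11:96185171-96186291) had 69 and 57 for WT, 57 and 59 for Trdn-as KO, 50 and 47 for Mettl3 KO, a difference of -0.36 (SE 0.13, adjusted p = 0.20). At these 3 peaks the Mettl3 KO and WT libraries did not overlap.

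**Figure D5:**
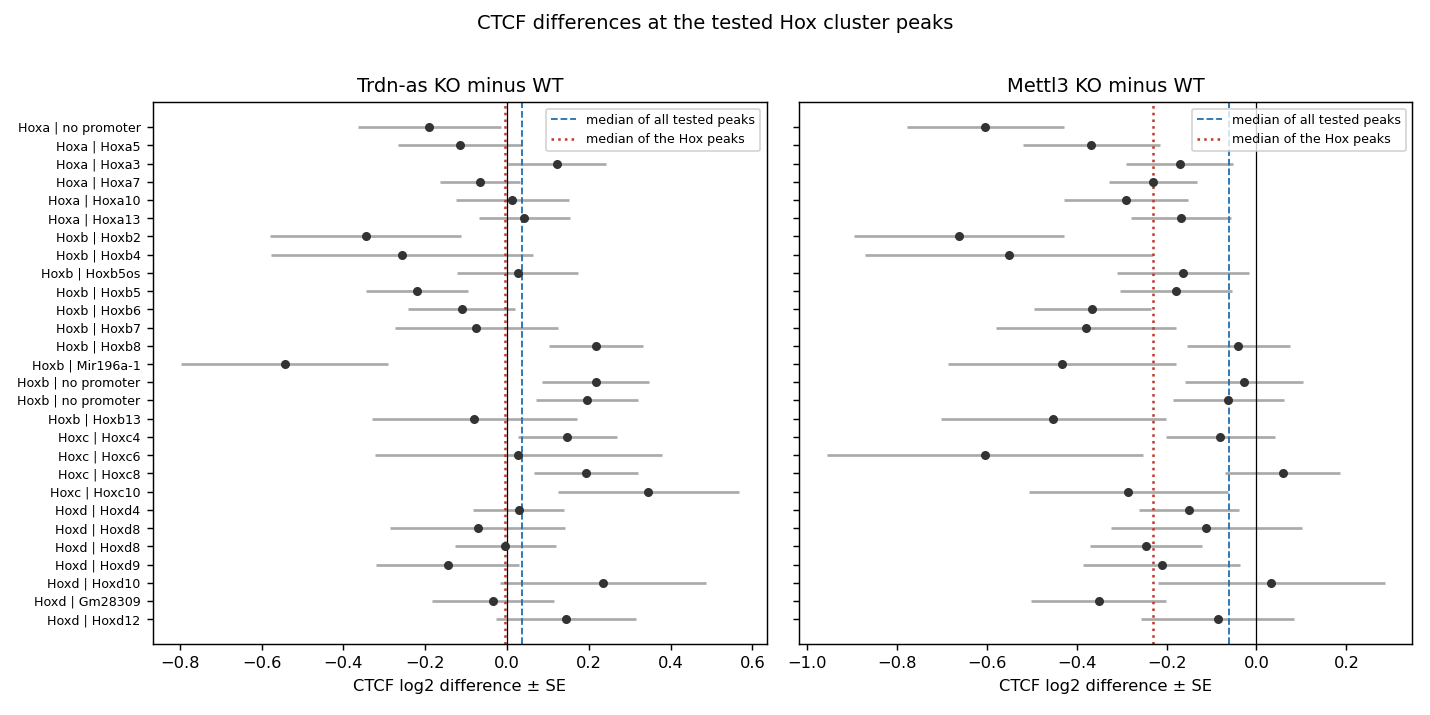
CTCF log2 differences with their standard errors at 28 of the 29 tested Hox cluster peaks, in order along each cluster, for Trdn-as KO minus WT (left) and Mettl3 KO minus WT (right). The solid line is at 0, the dashed line is the median of all tested peaks and the dotted line that of the Hox peaks. In Mettl3 KO nearly all peaks lie below 0, with a median of -0.23 over the 29 Hox peaks against -0.06, and in Trdn-as KO they lie on both sides.

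Trdn-as KO and WT did not differ in this manner. Limma called 0 of the 29 CTCF peaks, with 0.587% of all called, and 1 had an unadjusted p below 0.05 (background 10.2%). CTCF was lower at 15 peaks and higher at 14, with a median log2 difference of -0.004 against 0.04. The smallest p-values were those of Mir196a-1 (chr11:96152403-96152784), which encodes a microRNA that targets Hoxb8, with 16 and 14 for WT, 9 and 11 for Trdn-as KO, 9 and 13 for Mettl3 KO (-0.54, SE 0.25, limma adjusted p = 0.48), of Hoxb8, with 0.22 (SE 0.11, adjusted p = 0.53), and of Hoxb5 (chr11:96193659-96194590), with -0.22 (SE 0.12, adjusted p = 0.56). At Hoxb5 CTCF was 59 and 59 for WT, 52 and 49 for Trdn-as KO, 53 and 51 for Mettl3 KO. At Mir196a-1 the IgG value on the deposited scale was 15 for WT, 7 for Trdn-as KO and 23 for Mettl3 KO. CTCF there lay on both sides of IgG in WT, above it in Trdn-as KO and below it in Mettl3 KO. Both Trdn-as KO libraries were below both WT libraries at 3 of the 29 peaks (background 13.1%) and above at 4 (background 19.4%).

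Between the mutants limma called 0 of the 29 CTCF peaks, with 1.37% of all called, and 6 had an unadjusted p below 0.05 (background 18.8%). Trdn-as KO was higher at 27 of the 29, with a median of 0.25 against 0.09, and its libraries were above both Mettl3 KO libraries at 15 (51.7%, background 34.7%) and below at 0 (background 12.6%). This comparison uses the same Mettl3 KO libraries as the one with WT. The smallest p-values were at Hoxc10 (chr15:102874816-102875179), with 18 and 14 for WT, 19 and 22 for Trdn-as KO, 15 and 11 for Mettl3 KO (0.63, SE 0.22, limma adjusted p = 0.15), at the peak annotated to Hoxa3 between Hoxa5 and Hoxa7 (chr6:52188139-52189370), with 89 and 77 for WT, 98 and 83 for Trdn-as KO, 77 and 70 for Mettl3 KO (0.29, SE 0.12, adjusted p = 0.20), and at the peak between Hoxa4 and Hoxa5 (0.41, SE 0.17, adjusted p = 0.22).

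Genes that act on the clusters or with Hox proteins were read at their promoter peak with the highest mean Pol II, and these values are not divided by length. The 9 Pbx, Meis and Pknox genes, homeobox genes of the TALE class whose proteins bind DNA together with Hox proteins, all had a promoter peak, and their median Pol II value was 417. 1 of 9 was called for Pol II in Mettl3 KO against WT (background 1.19%), Pknox2, with 282 and 298 for WT, 537 and 395 for Trdn-as KO, 473 and 517 for Mettl3 KO (log2 difference 0.77, SE 0.17, limma adjusted p = 0.0078), a call that held in 7 of 14 alternatives. CTCF at Pknox2 was 154 and 164 for WT, 260 and 246 for Trdn-as KO, 186 and 187 for Mettl3 KO, called, as 1 of 9 in each case, as higher in Trdn-as KO against WT (background 0.587%; 0.67, SE 0.08, limma adjusted p = 6.8e-05) and against Mettl3 KO (background 1.37%; 0.44, adjusted p = 0.0052), each in 4 of 13 alternatives.

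Of 18 Polycomb genes, which keep silent Hox genes silent, 16 had a promoter peak. Of these, 0 were called in any comparison for either antibody, which is near the background of 0.185% to 1.5% of all peaks. The same held for the 10 of 11 genes of CTCF and cohesin with a promoter peak, Ctcf itself having 340 and 395 for WT, 439 and 324 for Trdn-as KO, 478 and 474 for Mettl3 KO. Among 12 of 13 Trithorax and H3K27 demethylase genes, which oppose Polycomb, 1 was called (background 0.304% for Pol II in Trdn-as KO against WT), Kdm6a, an X-linked demethylase gene that escapes X inactivation. Its Pol II value was 493 and 554 for WT, 889 and 741 for Trdn-as KO, 564 and 610 for Mettl3 KO (0.63 against WT, SE 0.15, limma adjusted p = 0.030), and its CTCF value was also higher in Trdn-as KO against WT (0.84, SE 0.10, adjusted p = 1.15e-04) and against Mettl3 KO (0.93, adjusted p = 3.7e-05). The Pol II call held in 6 of 14 alternatives, with log2 differences from 0.03 to 0.77, and the CTCF calls in 4 and 6 of 13. It moved with the Y-chromosome values of 0 in Trdn-as KO, whose part in this was not tested.

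Retinoic acid induces the anterior Hox genes in the embryo. Of 14 genes of this pathway 10 had a promoter peak, and 1 was called (background 1.19% for Pol II in Mettl3 KO against WT), Cyp26b1, which degrades retinoic acid. Pol II there was 135 and 138 for WT, 88 and 96 for Trdn-as KO, 44 and 54 for Mettl3 KO, a log2 difference of -1.47 in Mettl3 KO (SE 0.26, limma adjusted p = 5.34e-04), with no overlap between genotypes. The call held in 7 of 14 alternatives, with log2 differences between -1.62 and -1.32. The median Pol II value of the 10 genes was 43.3, below that of the other lists of this kind, with a range from 12 to 367.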

How the data were processed

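Ventricular chromatin of 3 genotypes (WT, Trdn-as KO, Mettl3 KO) was measured in 15 libraries of Pol II, CTCF and IgG. Per the labels and the study's methods, the authors trimmed reads with Trimmomatic 0.39, aligned them with STAR 2.7.11b to mm39, removed duplicates with Picard 3.1.1, called peaks with MACS, removed blacklisted regions, merged all peaks into a union, counted reads with featureCounts and normalized with DESeq2 1.36.0. The deposited values are scores: normalized counts rounded to whole numbers, on a scale shared by all libraries, so that values of single reads are coarse and count models were not used. The input libraries were not analysed here. Deposited columns with gene positions, strand and distance to the start were used as annotation.

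Members were found by gene symbol and by position. The members and the gene lists were chosen with earlier results of these data known. Values were tested as log2(value + 1) with limma 3.58.1 (R 4.3.3) with a variance trend, over all peaks that reached 10 in 2 or more of an antibody's 6 libraries. All 6 libraries entered each fit, p-values were adjusted by Benjamini-Hochberg over all tested peaks and the threshold was 0.05. The scripts were tested on simulated data. The number of reads in a Pol II or IgG library was recovered from the spacing of its values, and values per 1000000 reads used the study's uniquely mapped reads. For CTCF the spacing was below 1 and was not resolved. Differences in log2 understate the change of low peaks.

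Hox genes were represented by their promoter peak with the highest mean Pol II. Values in every library were given for the 2 peaks per cluster highest in each antibody, for called peaks and, where a comparison called none, for the 3 smallest p-values. Each list gene was taken by its promoter peak with the highest mean Pol II, with values for at most 3 per list. Further peaks of Hoxb2 and Hoxb4 and the genes Ctcf, Col3a1 and Myh6 lie outside this rule and were named after their values were seen. The alternatives were other library scalings, no filter, a pseudocount of 4, the compared genotypes alone, no variance trend, a replicate block and leaving out each library. 4 gene names were taken from GENCODE M21 by identifier. 1 item is not reported here.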

Additional observations from a re-analysis of the deposited data

How the results depend on the processing

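The call at Hoxb4 between Trdn-as KO and Mettl3 KO rested on the processing. 1 Hox peak remained called after scaling to the same total, quantile normalization, a pseudocount of 4 and the replicate block, and 0 were called with uniquely mapped reads as library size, without the filter on low values, with only the compared genotypes and without the variance trend. Leaving out single libraries gave between 0 and 1 called peaks, 1 only without Trdn-as KO replicate 1. The log2 difference of Hoxb4 stayed between -1.71 and -1.05 under all 14 alternatives, with limma adjusted p between 0.0083 and 0.61. The count of called Hox peaks was 0 in the other 5 comparisons under every alternative. Of the named Hox peaks, Hoxb7 alone changed sign: for Pol II in Trdn-as KO against WT its log2 difference lay between -2.31 and 0.087 when single libraries were left out. The number of clusters in which the highest Pol II and the highest CTCF peak differed was 4 per kb and in each library pair. 10 Hox peaks exceeded IgG in all genotypes on the deposited scale, in place of 18 in values per 1000000 mapped reads, a choice made after seeing the data.

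The replicate numbers did not pair the libraries. After the genotype mean of each peak was subtracted, the deviations of same-numbered libraries correlated at between -0.01 and 0 for Pol II and between -0.24 and 0.01 for CTCF. The replicate block changed no call at a Hox peak. Over all peaks it changed the CTCF counts from 356 to 236 in Trdn-as KO against WT, from 112 to 2 in Mettl3 KO against WT and from 828 to 376 between the mutants. With crossed numbers in Trdn-as KO, added after seeing the negative correlation, 503 CTCF peaks were called in Trdn-as KO against WT, 846 in Mettl3 KO against WT and 2061 between the mutants, and 0 of the Hox peaks in Trdn-as KO against WT. Counts over all peaks also varied with single libraries: without Trdn-as KO replicate 1, 9539 Pol II peaks were called between the mutants in place of 790. With libraries scaled by uniquely mapped reads, the median of all Pol II peaks in Trdn-as KO against WT moved from -0.07 to -0.65 and that of the Hox peaks from -0.04 to -0.60. The calls at Pknox2, Kdm6a and Cyp26b1 and at the fibroblast markers were lost for both antibodies and all comparisons without the variance trend and without the filter on low values, except that of Kdm6a for CTCF between the mutants, and without either WT library. The 26 Hox peaks tested for Pol II and 29 for CTCF are those that reached the filter, and the others were too low to be tested. 2 libraries per genotype give a coarse estimate of the spread.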
